A study of Papio anubis with 25 samples.

Results

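Aquaporins are the membrane pores that let water, and in some members glycerol, cross the cell membrane. The transcripts described here are those of the listed aquaporin genes AQP1, AQP3, AQP4, AQP5, AQP7, AQP8, AQP9 and AQP11, taken by symbol from a table of 21287 genes. Of these 8 genes, 7 had a row in the table, and AQP9 was not analysed here. RNA of 5 tissues of 5 olive baboons (Papio anubis) had been sequenced in 25 libraries: parotid, submandibular and sublingual salivary gland (left gland in each case), pancreas and liver, 1 library per tissue and animal. The only male was baboon 5, the other 4 animals were female, all tissue was flash frozen, and the labels used here name no age or treatment. The series as a whole was built around amylase expression in salivary glands and digestive organs, and its stated comparisons set the salivary glands against the pancreas, and the pancreas against the liver, within each animal.

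Water moves through aquaporins along osmotic gradients that ion transport sets up. In salivary acini, chloride secretion into the lumen draws water through AQP5 in the apical membrane. AQP1, AQP4, AQP5 and AQP8 are mainly water channels, AQP3 and AQP7 also carry glycerol and are called aquaglyceroporins, and AQP11 is a divergent member that lies largely in intracellular membranes. Levels are in TPM, the abundance of a gene corrected for transcript length and scaled to the same total in every library, so that genes can be compared with each other within a library. No read depth is known for these libraries, and the errors given are standard deviations (SD) over the 5 animals. Because whole tissue sections were sequenced, fewer cells of a type and less RNA per cell cannot be told apart.

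Several salivary gland libraries stood apart in the cells they held. Summed over the markers ZG16B, OPRPN, PIP, BPIFA2 and MUC7, salivary secretory transcripts were at 2042 and 4597 TPM in the parotid libraries of baboons 2 and 5, at 2190 TPM in the submandibular library of baboon 2, and in sublingual gland at 1443 TPM (baboon 2) and 5307 TPM (baboon 4). They were between 6436 and 324600 TPM in the other 10 gland libraries and between 943.8 and 4429 TPM in pancreas and liver. The summed adipocyte markers (ADIPOQ, PLIN1, CIDEC, LEP and FABP4) reached 21270 TPM in the parotid library of baboon 2, and 6860 and 2775 TPM in the submandibular libraries of baboons 5 and 2, against at most 395.7 TPM elsewhere. The lymphocyte markers reached 911.6 TPM in the parotid library of baboon 5. The skeletal muscle markers reached 58850 TPM in the sublingual library of baboon 2, and the stratified mucosa markers (KRT13, KRT4, CRNN and TGM1) reached 78760 and 19500 TPM in those of baboons 1 and 4. Pancreas and liver matched their labels: the summed pancreatic acinar markers were at 63650 to 126400 TPM in pancreas and at most at 1808 TPM elsewhere, and the summed hepatocyte markers were at 38420 to 65270 TPM in liver and at most at 976.7 TPM elsewhere. The 10 most abundant genes held 17.96% to 87.66% of all TPM in the parotid and 16.21% to 83.18% in the submandibular libraries. In sublingual gland they held 23.42% to 43.51%, in pancreas 40.26% to 46.71% and in liver 23.4% to 35.94%. Every library has the same total, so a large share of a few genes lowers the TPM of all others. Comparisons of levels between libraries carry this limit.

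**Figure D1:**
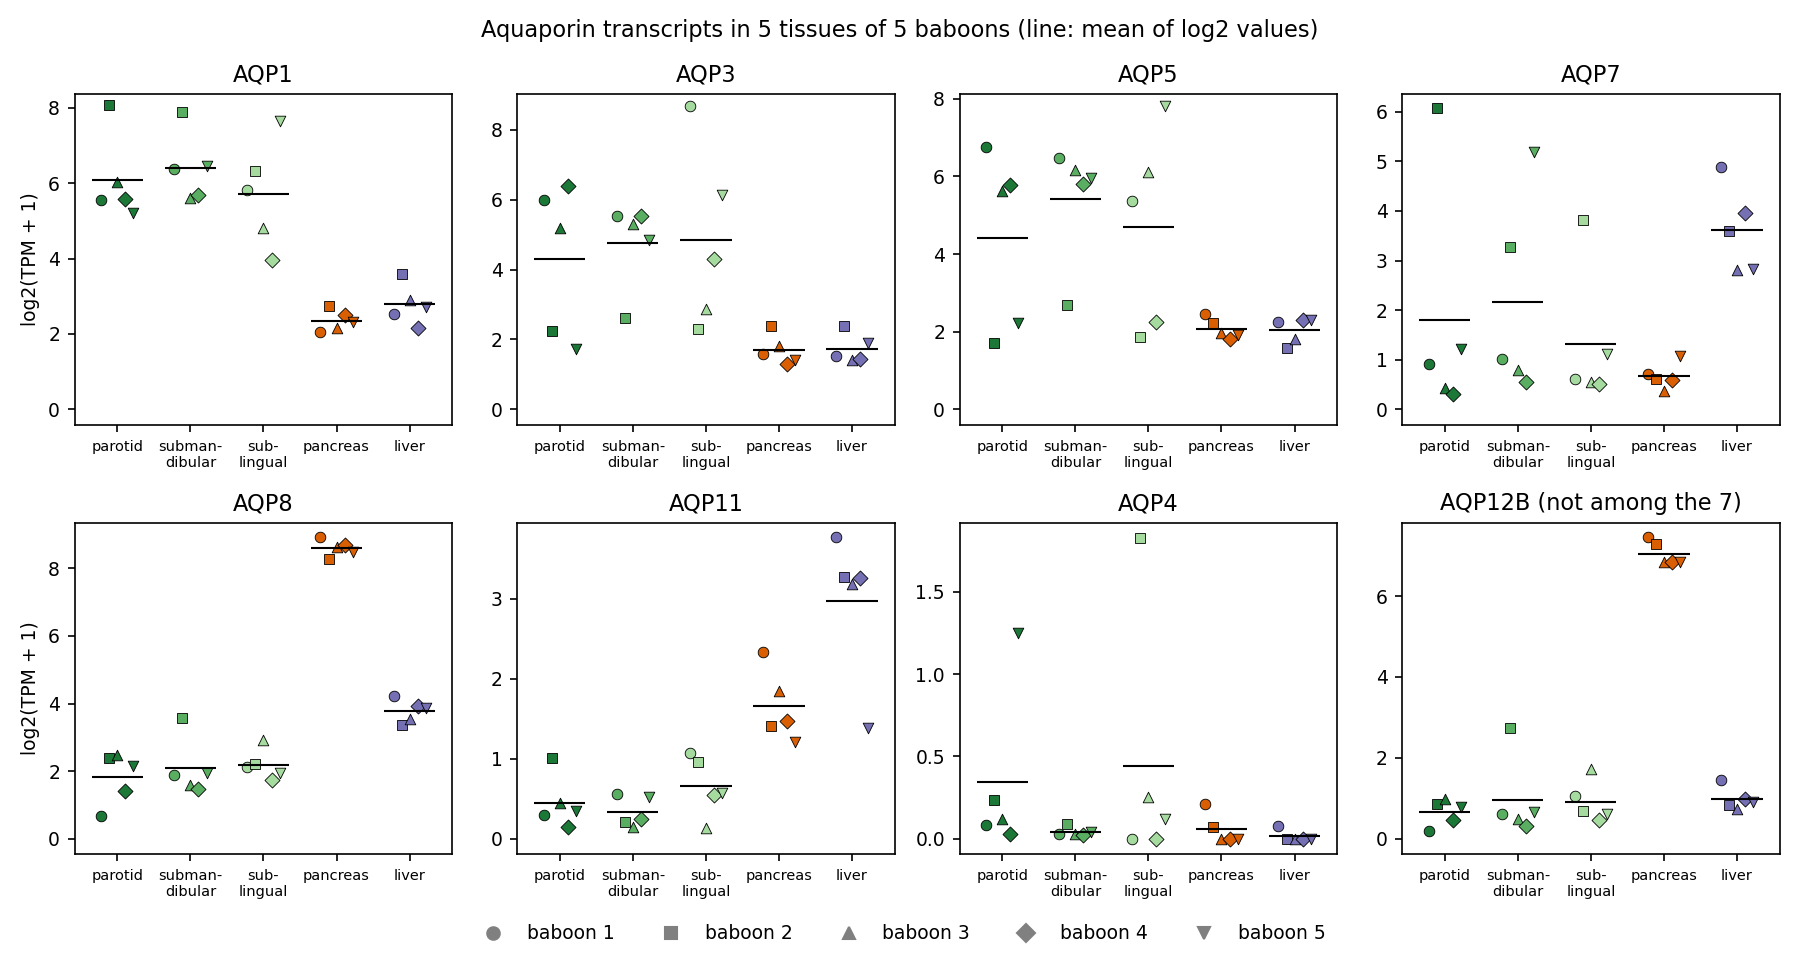
Level of each analysed aquaporin in every library, with AQP12B beside them, as log2(TPM + 1) on the vertical axis (scaled for each panel) by tissue on the horizontal axis. Each point is 1 library, its shape gives the baboon, and the line is the mean of the 5 log2 values. AQP1, AQP3 and AQP5 reach their highest levels in salivary glands, AQP8 and AQP12B in pancreas, and AQP4 stays under 3 TPM in every library.

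AQP5, the apical water channel of salivary acinar cells, was at 107.1, 2.247, 48.34, 53.86 and 3.636 TPM in the parotid libraries of baboons 1 to 5. The parotid libraries of baboons 2 and 5 were thus as low as pancreas (2.528 to 4.521 TPM) and liver (1.983 to 3.904 TPM). In the submandibular gland AQP5 was at 88.27, 5.397, 70.8, 54.71 and 61.75 TPM, and all 5 libraries lay above every pancreas and liver library. In the sublingual gland it was at 40.5, 2.612, 68.89, 3.784 and 225.7 TPM, with baboon 5 the highest of all 25 libraries and baboons 2 and 4 within the range of pancreas and liver. The 5 gland libraries with AQP5 under 6 TPM were the same 5 that had the lowest summed salivary secretory markers.

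AQP5 was higher in submandibular gland than in pancreas by 3.34 on the log2(TPM + 1) scale (SE 0.84, limma with Benjamini-Hochberg adjusted p = 0.0206), in 5 of 5 animals. It was higher than in liver by 3.38 (SE 0.84, limma adjusted p = 0.00579), again in 5 of 5 animals. Without the animal as a replicate block, the first of these lost its call (limma adjusted p = 0.0553). In sublingual gland AQP5 was higher than in liver by 2.65 in 4 of 5 animals (SE 0.84, limma adjusted p = 0.033), and this call too was lost without the block (adjusted p = 0.0702). It was also lost when only these 2 tissues were fitted with the block (0.0802), under TMM or median-of-ratios scaling (0.0917 and 0.0854) and with no filter on low values (0.0637). Leaving out baboon 1, 3 or 4 ended the submandibular call against pancreas (limma adjusted p from 0.0808 to 0.164), leaving out baboon 3 that against liver (0.0556), and leaving out baboon 1, 3 or 5 the sublingual one (0.112 to 0.202). Against pancreas the sublingual difference of 2.61 did not pass (limma adjusted p = 0.0508), nor did the parotid differences of 2.34 from pancreas and 2.37 from liver (adjusted p = 0.142 and 0.0635), each with 4 of 5 animals higher in the gland. Of the 16 alternatives, some of which leave out libraries, 6 called this sublingual difference. The parotid differences from pancreas and liver were called under 3 and 6 of them.

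With all tissues of baboon 2 or of baboon 5 left out, the parotid difference from liver passed (limma adjusted p = 0.0283 and 0.0118). When the parotid libraries of baboons 2 and 5, the submandibular library of baboon 5 and the sublingual library of baboon 2 were left out, AQP5 was higher in parotid than in pancreas by 3.94 (limma adjusted p = 0.00607) and than in liver by 3.97 (adjusted p = 0.00145). These 4 libraries hold much adipose, lymphoid or muscle RNA, and 3 of them are low in AQP5 as well, so these values are given as a description. Over the 15 gland libraries log2 AQP5 and log2 summed salivary secretory markers had a Pearson correlation of 0.892, given as a description, since these libraries come from 5 animals and share their sections' makeup. The part of section content in the AQP5 differences was not tested.

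**Figure D2:**
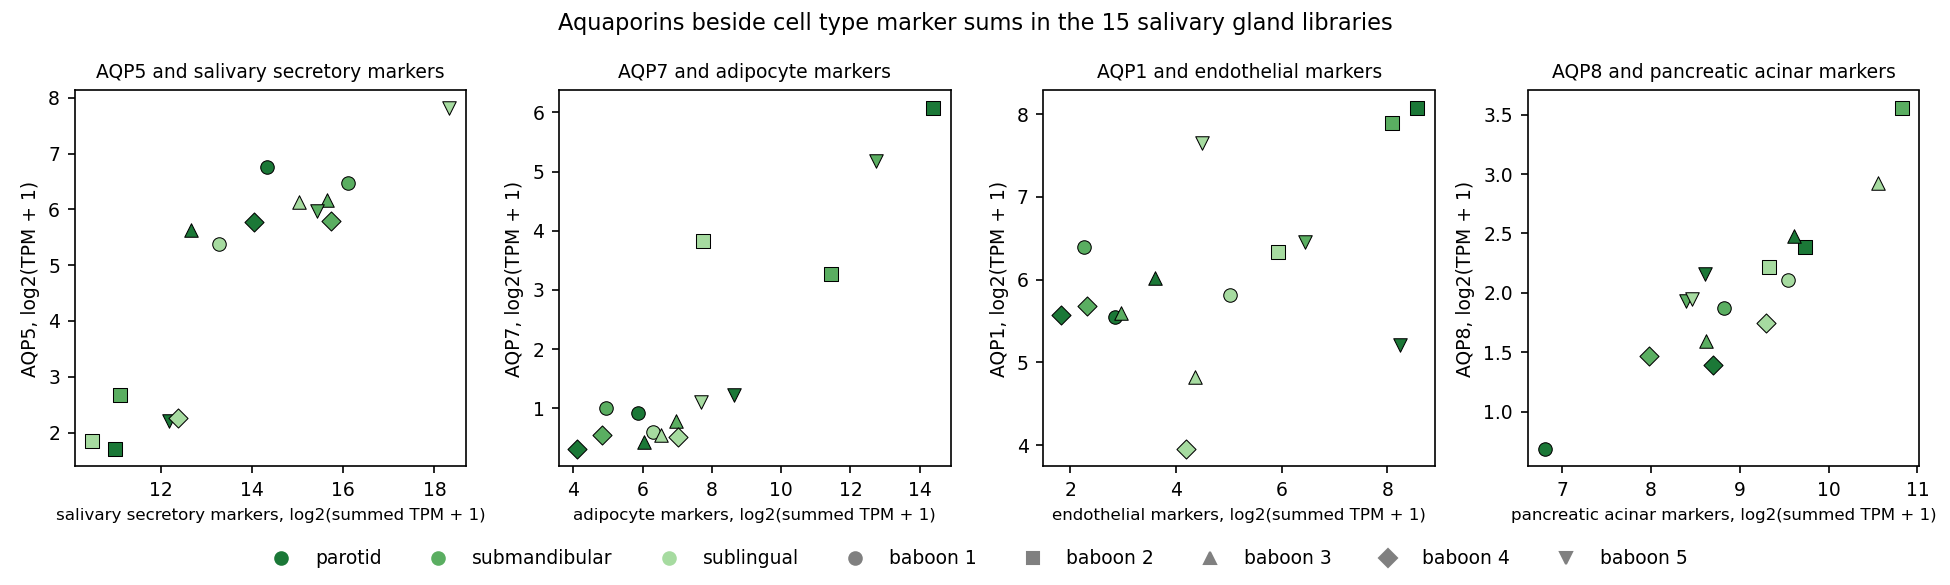
Levels of AQP5, AQP7, AQP1 and AQP8 (vertical axes, log2(TPM + 1)) against summed cell type markers (horizontal axes, log2(summed TPM + 1)) in the 15 salivary gland libraries; color gives the gland and shape the baboon. AQP5 lies along the salivary secretory markers (Pearson r = 0.892), AQP7 along the adipocyte markers (0.899) and AQP8 along the pancreatic acinar markers (0.919), while AQP1 and the endothelial markers are less alike (0.459).

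AQP3, an aquaglyceroporin of the basolateral membrane of many epithelia and of skin and mucosal keratinocytes, was at 61.99, 3.731, 35.6, 82.25 and 2.276 TPM in the parotid libraries of baboons 1 to 5. It was at 44.82, 5.107, 38.66, 45.56 and 28.0 TPM in submandibular gland. In sublingual gland it was at 405.8, 3.918, 6.311, 18.79 and 69.18 TPM, so baboon 1 exceeded every other library. Pancreas (1.449 to 4.206 TPM) and liver (1.646 to 4.218 TPM) were low throughout. Only the submandibular libraries all lay above every pancreas and liver library.

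AQP3 was higher in submandibular gland than in pancreas by 3.07 (log2 scale, SE 0.88, limma adjusted p = 0.0479) and than in liver by 3.03 (SE 0.88, adjusted p = 0.0172), in 5 of 5 animals each. In sublingual gland it was higher than in pancreas by 3.16 and than in liver by 3.12, in 4 of 5 animals (SE 0.88, limma adjusted p = 0.0276 and 0.015). Leaving out baboon 1 reduced these sublingual differences to 2.18 and 2.12 and ended both calls (limma adjusted p = 0.209 and 0.164), as did fitting only the 2 tissues compared with the replicate block (0.0769 and 0.0675). The sublingual call against pancreas was also lost without baboon 3, 4 or 5 (adjusted p from 0.051 to 0.0903) and that against liver without baboon 5 (0.0547). The submandibular calls were lost without baboon 1, 3 or 4 (adjusted p from 0.131 to 0.236 against pancreas and from 0.0507 to 0.0963 against liver), and that against pancreas also without baboon 5 (0.117) or the replicate block (0.0752). Parotid did not pass against pancreas or liver (differences of 2.60 and 2.57, limma adjusted p = 0.112 and 0.0521). These 2 differences were called under 4 and 8 of the 16 alternatives, some of which leave out libraries. Without the 4 libraries named above, those parotid differences were 4.12 and 4.09 (adjusted p = 0.00778 and 0.00217), and without baboon 2 alone 3.29 and 3.24 (0.0469 and 0.0169). The parotid libraries left out are the 2 with the lowest parotid AQP3, so larger differences follow from the choice, and these values are a description only.

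The balance of AQP3 to AQP5 set the sublingual libraries apart from each other. The ratio of AQP3 to AQP5 was between 0.4534 and 1.66 in all 10 parotid and submandibular libraries. In the sublingual libraries of baboons 1 to 5 it was 10.02, 1.5, 0.0916, 4.965 and 0.3065. The 2 highest ratios were in the 2 libraries rich in stratified mucosa markers, and the 2 lowest in those of baboons 3 and 5, which held 33530 and 324600 TPM of salivary secretory markers. The 2 mucosa-rich libraries, of baboons 1 and 4, also held 49140 and 66120 TPM of the neutrophil markers (S100A8, S100A9, CSF3R, CXCR2 and S100A12). The other gland libraries held at most 668.1 TPM of them. Nearly all of the high sums was S100A8 and S100A9. In sublingual gland CSF3R, CXCR2 and S100A12 did not exceed 0.199, 12.52 and 3.767 TPM. In baboon 4 the ratio went with a low AQP5 (3.784 TPM) at an AQP3 of 18.79 TPM, and in baboon 1 AQP3 was at 405.8 TPM. Over the 15 gland libraries the Pearson correlation of log2 AQP3 was 0.115 with the stratified mucosa and -0.039 with the neutrophil marker sum. It was 0.551 with the salivary secretory marker sum and 0.71 with AQP5, all as a description. Mucosal keratinocytes are known to carry AQP3. The part of mucosa or neutrophils in these values was not tested.

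AQP1, the water channel of red blood cells, capillary endothelium and, in human salivary glands, myoepithelial cells, was high in all gland libraries. It was at 45.83, 269.5, 64.17, 46.64 and 36.17 TPM in the parotid libraries of baboons 1 to 5. In submandibular gland it was at 82.84, 237.4, 47.32, 50.47 and 86.87 TPM, and in sublingual gland at 55.14, 79.76, 27.24, 14.47 and 199.4 TPM. Pancreas held 3.127 to 5.686 TPM and liver 3.496 to 11.12 TPM. No gland library overlapped with pancreas or liver.

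AQP1 was higher than in pancreas by 3.74 (parotid), 4.05 (submandibular gland) and 3.36 (sublingual gland) on the log2(TPM + 1) scale (SE 0.49 each, limma adjusted p = 1.4e-05, 3.88e-06 and 6.3e-05). It was higher than in liver by 3.31, 3.62 and 2.93 (SE 0.49, limma adjusted p = 1.92e-05, 4.82e-06 and 0.000104). Each difference had the same sign in 5 of 5 animals, and all 6 kept their call under the 16 alternatives run.

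AQP1 was not uniform among the 5 sections poor in secretory transcripts: sublingual gland of baboon 4 had the lowest AQP1 of the 15 gland libraries (14.47 TPM). The highest levels were in the parotid and submandibular libraries of baboon 2, where the 5 endothelial markers (PECAM1, VWF, CDH5, KDR and CLDN5) summed to 377.6 and 272.4 TPM and the erythroid markers to 3030 and 6016 TPM, nearly all of it HBB. In the other gland libraries the endothelial sum was between 2.551 and 299.8 TPM and the erythroid sum between 23.36 and 340.7 TPM. Liver held 55.8 to 777.6 TPM of erythroid markers at its low AQP1 level. Over the 15 gland libraries the Pearson correlation of log2 AQP1 was 0.747 with the erythroid, 0.595 with the adipocyte, 0.459 with the endothelial and 0.111 with the myoepithelial marker sum, as a description. The parotid library of baboon 5, however, had an endothelial sum of 299.8 TPM and the lowest parotid AQP1. In pancreas and liver the endothelial sum was 5.904 to 12.37 TPM, which overlaps with that of the gland libraries low in endothelial markers: the parotid library of baboon 4 had an endothelial sum of 2.551 TPM and AQP1 at 46.64 TPM. The myoepithelial sum was 14.8 to 39.9 TPM in pancreas, 59.21 to 198.9 TPM in liver and 45.77 to 971.9 TPM in the glands. AQP1 and these marker sums also depend on the share that the most abundant genes take of each library. The part of vessels, blood and myoepithelium in the AQP1 differences was not tested.

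AQP8, a water channel found in pancreatic acinar cells and in hepatocytes, was the most abundant aquaporin of the pancreas, at 489.7, 310.8, 399.4, 409.3 and 357.5 TPM in baboons 1 to 5. Liver held 17.48, 9.221, 10.64, 14.31 and 13.48 TPM. The salivary glands held at most 10.79 TPM, in the submandibular library of baboon 2, and their means were 2.902 TPM in parotid, 4.007 TPM in submandibular and 3.755 TPM in sublingual gland. The pancreas libraries did not overlap with any other tissue.

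Against pancreas, the log2 fold change of AQP8 was -6.79 in parotid (SE 0.42, limma adjusted p = 1.17e-10), -6.52 in submandibular (adjusted p = 1.72e-10) and -6.42 in sublingual gland (adjusted p = 3.28e-10). Pancreas exceeded liver by 4.83 (SE 0.42, limma adjusted p = 3.3e-09). These 4 differences had the same sign in 5 of 5 animals and kept their call under all 16 alternatives. AQP8 was also lower in the glands than in liver, by log2 fold changes of -1.96 in parotid, -1.70 in submandibular and -1.59 in sublingual gland (SE 0.42, limma adjusted p = 0.00177, 0.0059 and 0.0105), although the submandibular library of baboon 2 lay above the liver of the same animal. The submandibular call against liver was lost without baboon 4 (limma adjusted p = 0.0685), the sublingual one without baboon 1, 4 or 5 (0.0519 to 0.082), and the parotid one when only parotid and liver were fitted (0.0529).

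The low AQP8 level in the glands moved with other pancreatic transcripts. Relative to the pancreas mean, AQP8 was at means of 0.738%, 1.02% and 0.955% in parotid, submandibular and sublingual gland. The summed acinar markers CPA1, CPB1, CELA3B, CTRB2 and CEL were at 0.577%, 0.735% and 0.877% of theirs in the same order. Over the 15 gland libraries the 2 had a Pearson correlation of 0.919 on the log2 scale. In liver the figures parted: AQP8 was at 3.31% of its pancreas mean (2.34% to 4.44% over the 5 livers) and the acinar markers at 0.868% (0.635% to 1.19%), with no overlap between the 2 ranges. Relative to the submandibular mean, AQP5 was at 5.82% in pancreas and 5.69% in liver, AQP3 at 7.31% and 7.54%, and AQP1 at 4.15% and 6.23%. The summed salivary secretory markers were at 5.90% and 6.72% of theirs. What lies behind these low levels was not tested.

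AQP12B, which is not among the listed genes but is the pancreatic acinar member of the family, was at 174.3, 156.9, 113.5, 114.2 and 113.5 TPM in pancreas. It did not exceed 5.684 TPM in any other library. Pancreas exceeded liver by 6.08 (SE 0.39, limma adjusted p = 1.12e-11), and the glands were lower than pancreas by log2 fold changes of -6.41 in parotid, -6.09 in submandibular and -6.15 in sublingual gland (SE 0.39, adjusted p at most 3.28e-10). Unlike AQP8, AQP12B in liver was at 0.747% of its pancreas mean, inside the range of the acinar markers. The pancreas thus held 2 abundant aquaporins, and none of the other 10 family members in the table exceeded 6 TPM in a pancreas library.

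AQP7, the glycerol channel through which fat cells release the glycerol of stored lipid, was at 28.68, 11.12, 6.055, 14.6 and 6.073 TPM in liver. In pancreas it was at 0.2837 to 1.121 TPM. In parotid it was at 0.8895, 66.7, 0.3555, 0.2387 and 1.335 TPM, in submandibular gland at 1.01, 8.603, 0.7222, 0.4607 and 35.31 TPM, and in sublingual gland at 0.5226, 13.18, 0.468, 0.4242 and 1.161 TPM. In each gland AQP7 was therefore near the pancreas level in 3 or 4 animals and within or above the liver range in the rest.

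AQP7 was lower in pancreas than in liver (log2 fold change -2.94, SE 0.78, limma adjusted p = 0.00811), in 5 of 5 animals, a call lost without baboon 1 (adjusted p = 0.0556). Sublingual gland was lower than liver (log2 fold change -2.30, SE 0.78, limma adjusted p = 0.0451) in 4 of 5 animals, and this was lost without the replicate block (adjusted p = 0.097) or without baboon 1, 3 or 4 (0.151 to 0.251). No gland passed against pancreas (limma adjusted p = 0.409, 0.474 and 0.555 for parotid, submandibular and sublingual gland). The parotid and submandibular glands did not pass against liver (adjusted p = 0.133 and 0.225). Without baboon 2 alone, parotid passed (log2 fold change -2.90, adjusted p = 0.00427), and without baboon 5 submandibular gland did (-2.42, adjusted p = 0.0404). With the 4 libraries rich in adipose, lymphoid or muscle RNA left out, the log2 fold changes were -2.88 and -2.23 (adjusted p = 0.000285 and 0.00115). That set holds the 3 gland libraries with the highest AQP7, so lower gland values follow from the choice, and these values are a description only.

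The gland libraries with high AQP7 were those that held adipose transcripts, with 1 exception. Over the 15 gland libraries AQP7 and the summed adipocyte markers had a Pearson correlation of 0.899 on the log2 scale. The sublingual library of baboon 2 had AQP7 at 13.18 TPM but an adipocyte sum of 211.4 TPM, close to the 203.5 TPM of the sublingual library of baboon 5, whose AQP7 was at 1.161 TPM. It was the library rich in skeletal muscle markers. In liver the adipocyte sum was 26.43 to 66.48 TPM, within the range of the gland libraries whose AQP7 was under 2 TPM. The part of fat and muscle tissue in the gland values was not tested.

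AQP11, the intracellular aquaporin, was at 12.64, 8.661, 8.126, 8.547 and 1.608 TPM in liver, with baboon 5 apart from the others. It was at 4.054, 1.646, 2.597, 1.772 and 1.315 TPM in pancreas, so the liver of baboon 5 lay within the pancreas range. In the 15 gland libraries it was between 0.09887 and 1.109 TPM. All gland libraries lay below all pancreas and liver libraries.

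AQP11 was lower than in liver by log2 fold changes of -2.52 in parotid, -2.64 in submandibular and -2.32 in sublingual gland (SE 0.33, limma adjusted p = 2.88e-06, 1.36e-06 and 1.09e-05), in 5 of 5 animals, and these 3 calls held under all 16 alternatives. It was lower in pancreas than in liver by -1.32 (SE 0.33, limma adjusted p = 0.00541), and the call was lost with TMM and median-of-ratios scaling (-0.77 and -0.76, under the fold needed for a call), with a pseudocount of 0.1 (-1.61, adjusted p = 0.0542) and without baboon 4 (adjusted p = 0.0552). Parotid and submandibular gland were lower than pancreas by -1.20 and -1.32 (SE 0.33, limma adjusted p = 0.0392 and 0.02). The parotid call was lost without the replicate block (adjusted p = 0.053), when only these 2 tissues were fitted with the block (0.194) and with a filter at 5 TPM (0.0684). Both calls were lost without baboon 1, 3 or 4 (adjusted p from 0.107 to 0.245), and sublingual gland did not pass (log2 fold change -1.0, adjusted p = 0.0573). The sublingual difference was called under 7 of the 16 alternatives. In libraries at this low level the pseudocount shrinks a fold change.

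AQP4, the water channel of astrocytes and of the skeletal muscle membrane, had no tissue mean of 1 TPM or more and was not tested. It was highest, at 2.549 TPM, in the sublingual library of baboon 2, the library with 58850 TPM of skeletal muscle markers, and next, at 1.379 TPM, in parotid of baboon 5, where these markers summed to 6.082 TPM. No other library exceeded 0.2 TPM, and 9 of 25 were listed at 0.

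**Figure D3:**
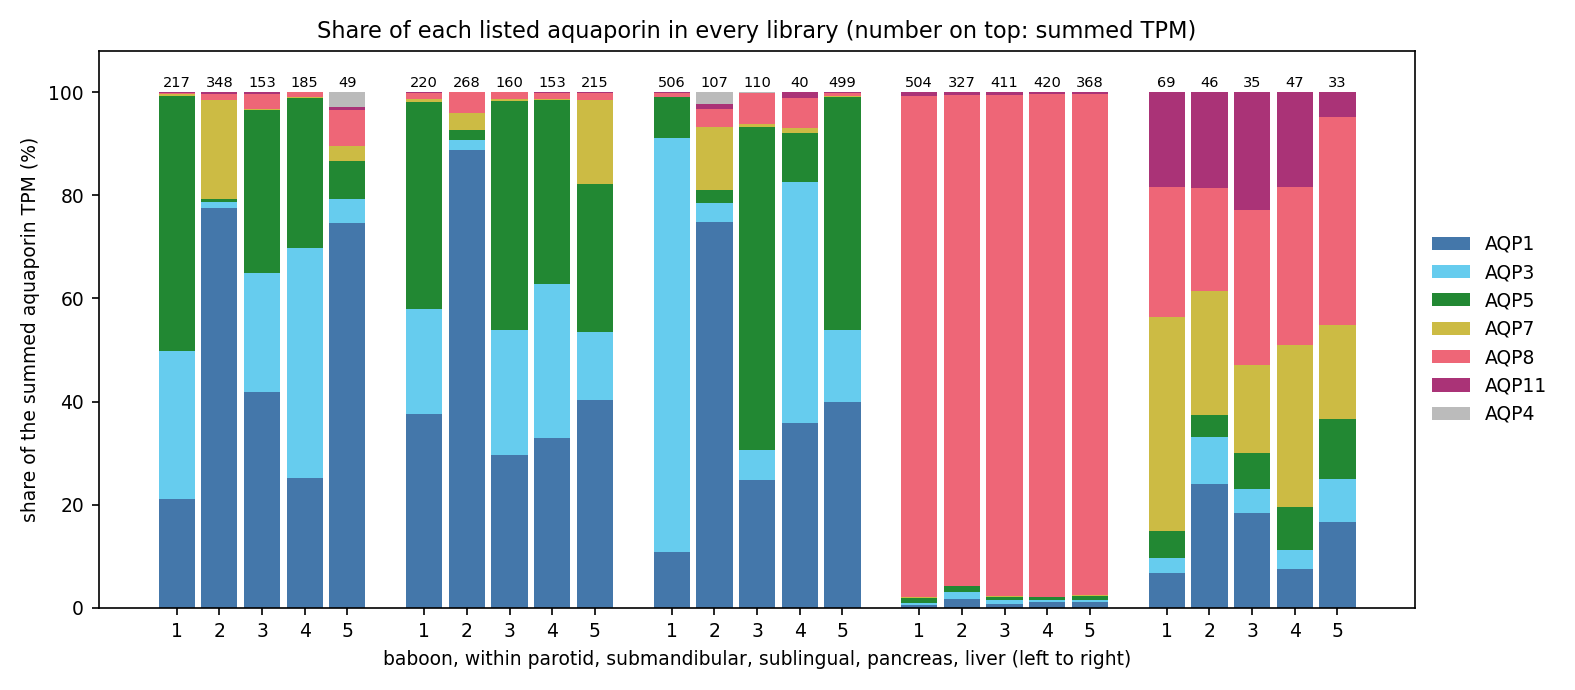
Share of each analysed aquaporin (color) in the summed TPM of the 7, as percent on the vertical axis, for baboons 1 to 5 within each tissue on the horizontal axis; the number above a bar is the summed TPM. AQP8 makes up 95.17% to 97.39% in pancreas, whereas AQP1, AQP3 and AQP5 in varying proportions make up most of the salivary glands.

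Added over the 7 genes, aquaporin transcripts averaged 406.1 ± 66.3 TPM (SD, n = 5) in pancreas, 46.2 ± 14.2 TPM in liver, 190.2 ± 108.3 TPM in parotid, 203.1 ± 47.3 TPM in submandibular and 252.4 ± 230.1 TPM in sublingual gland. These sums leave out AQP9, which was not analysed here, so its share in liver is unknown. They also leave out AQP12B, which averaged 134.5 TPM in pancreas. AQP8 made up 96.8 ± 0.908% of the sum in pancreas. In liver none of the 7 genes dominated: AQP8 made up 29.3 ± 7.58%, AQP7 26.4 ± 10.1%, AQP11 16.6 ± 6.87% and AQP1 14.7 ± 7.38%. Of these 7, AQP7 led in 3 livers and AQP8 in the other 2. In submandibular gland AQP5 led in 3 libraries and AQP1 in 2. In parotid AQP1 led in 3, AQP3 in 1 and AQP5 in 1, and in sublingual gland AQP3 led in 2, AQP5 in 2 and AQP1 in 1. AQP1 led in each gland of baboon 2.

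**Figure D4:**
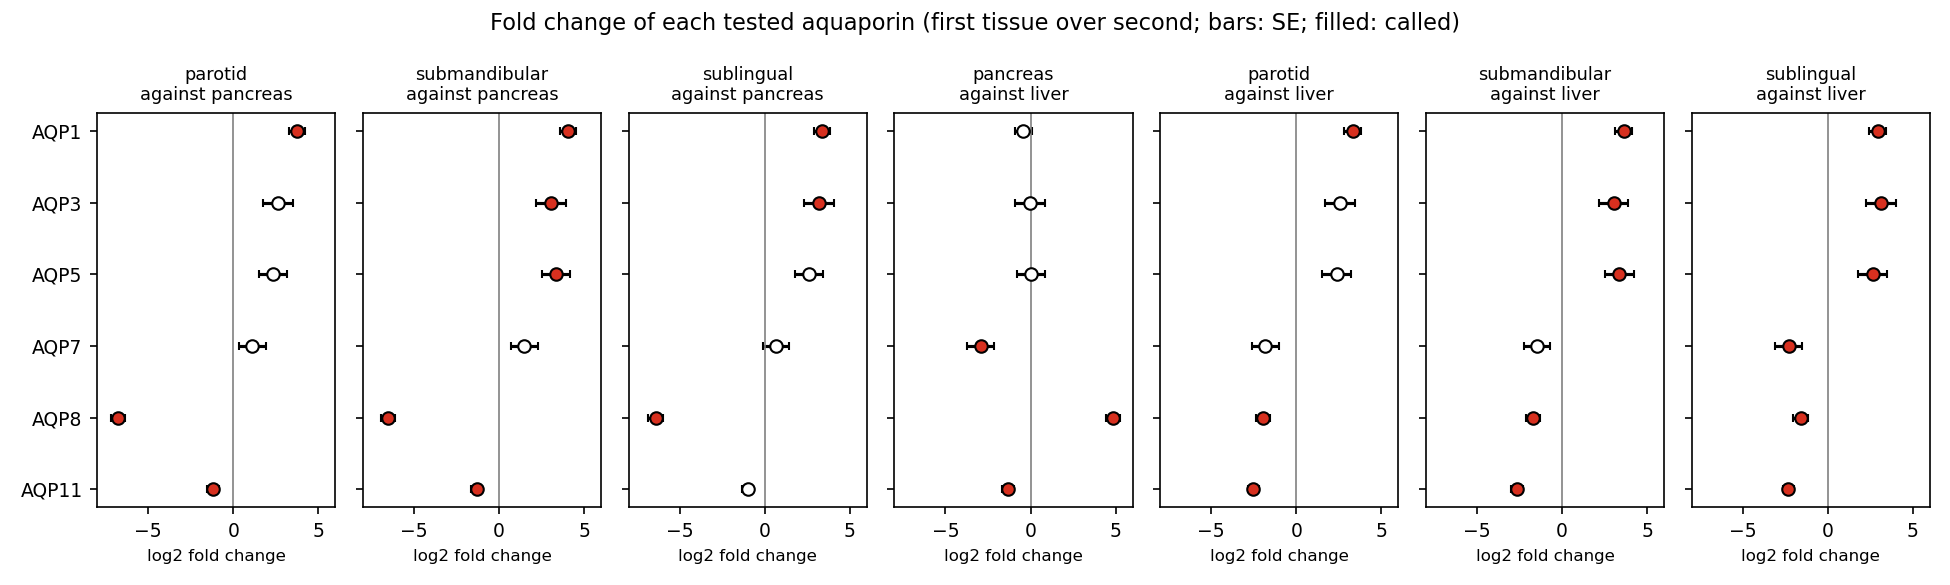
Log2 fold change (horizontal axis, first tissue over second, on log2(TPM + 1)) of the 6 tested aquaporins (vertical axis) in 7 comparisons. Bars are standard errors from the limma model, and filled points passed an adjusted p under 0.05 with a fold change of 1 or more in size on that scale. AQP1 is filled in all 6 gland comparisons and AQP8 in all 7.

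Of the 7 genes, 6 reached a mean of 1 TPM in a tissue and were tested among 14991 genes. In parotid against pancreas 3 of 6 were called (1 higher and 2 lower), where 3.82% of all tested genes were called (1.41% higher and 2.4% lower). In submandibular gland against pancreas 5 of 6 were called (3 higher and 2 lower), against 4.08% of all genes (1.27% and 2.81%). In sublingual gland against pancreas 3 of 6 were called (2 higher and 1 lower), against 9.47% of all genes (6.97% and 2.49%). In pancreas against liver 3 of 6 were called (1 higher and 2 lower), against 17.5% (2.86% and 14.6%). Against liver, 3 of 6 were called in parotid (1 higher and 2 lower), where 13.8% of all genes were (2.84% and 10.9%). In submandibular gland against liver 5 of 6 were called (3 higher and 2 lower), against 16.5% (2.61% and 13.9%), and in sublingual gland all 6 tested genes were (3 higher and 3 lower), against 15.4% (5.93% and 9.52%). The gland comparisons share their pancreas or liver libraries and are not independent of each other.

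The median log2 fold change of the 6 tested aquaporins was 1.73, 2.28 and 1.63 in parotid, submandibular and sublingual gland against pancreas, beside 0.45, 0.17 and 0.63 for all tested genes. It was 0.27, 0.79 and 0.53 against liver (all genes 0.01, -0.27 and 0.17) and -0.23 in pancreas against liver (all genes -0.44). TMM scaling of the libraries brought the medians of all genes against pancreas to 0.04, 0.02 and 0.09 and that of pancreas against liver to 0. No called aquaporin difference changed its sign under either scaling tried.

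Between salivary glands no aquaporin was called in 18 tests, 6 in each pair of glands, with limma. None had an unadjusted p under 0.05, and the smallest was 0.173. Of all tested genes, 0% were called in parotid against submandibular gland, 0.113% in parotid against sublingual gland (0.02% higher and 0.0934% lower) and 0.0667% in submandibular against sublingual gland (0.02% higher and 0.0467% lower). By their means, the glands ranked submandibular, parotid, sublingual for AQP1 (24.1, 22.1 and 18.0 times the pancreas mean), sublingual, parotid, submandibular for AQP3 (100.8, 37.2 and 32.4 TPM) and sublingual, submandibular, parotid for AQP5 (68.3, 56.2 and 43.0 TPM). No neighbours in these orders differed beyond their spread, which was as large as 172.5 TPM (SD) for sublingual AQP3. By medians sublingual gland was the lowest gland for AQP3 (18.79 TPM, against 35.6 in parotid and 38.66 in submandibular gland). The same held for AQP5 (40.5 TPM, against 48.34 and 61.75). For AQP1 parotid was the lowest gland by medians (46.64 TPM, against 55.14 in sublingual and 82.84 in submandibular gland). Pancreas and liver, which came last for AQP1, AQP3 and AQP5, did not pass against each other (limma adjusted p = 0.625, 0.992 and 0.992). For AQP8 the order of means was pancreas, liver and then the 3 glands, with both steps called. For AQP11 it was liver, pancreas, sublingual, parotid and submandibular gland, and the step from liver to pancreas was the only one between neighbours that passed. For AQP7 it was parotid (13.9 ± 29.5 TPM, SD, n = 5), liver (13.3 ± 9.32 TPM), submandibular gland (9.22 ± 14.98 TPM), sublingual gland (3.15 ± 5.62 TPM) and pancreas (0.618 ± 0.310 TPM), and no neighbours passed. Parotid came first by its mean through baboon 2 alone: its median was 0.8895 TPM, against 11.12 TPM in liver, and AQP7 was lower in parotid than in liver in 4 of 5 animals (log2 fold change -1.82, not called).

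Of the other aquaporins in the table, AQP12B is described above, and AQP2, the vasopressin-regulated channel of the kidney collecting duct, was the only other one that reached 1 TPM in a tissue mean. MIP, the lens aquaporin, was listed at 0 in all libraries, AQP10 did not exceed 0.2237 TPM, and AQP6 did not exceed 2.233 TPM. Of these 5 genes 2 were tested, and AQP12A, a close relative of AQP12B, was not analysed here. AQP12B was called lower in each gland against pancreas and higher in pancreas against liver, and AQP2 was called higher in submandibular gland than in liver (log2 fold change 1.18, SE 0.41, limma adjusted p = 0.0498). In that last comparison 2.61% of all tested genes were called higher. The AQP2 call lies at the threshold, at levels of 0 to 2.788 TPM in the gland. How the calls of AQP2 and AQP12B fare under the alternatives was not examined.

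AQP2, AQP5 and AQP6 follow each other without another protein-coding gene between them on chromosome 9 of the Panubis1.0 gene table, and AQP7 and AQP3 are neighbours on chromosome 13. AQP2 was at 2.509, 0.07797, 2.645, 0.6732 and 0.2313 TPM in the parotid libraries of baboons 1 to 5, at 1.783, 0, 2.244, 1.192 and 2.788 TPM in submandibular gland, and at 0.5857, 0.1053, 2.493, 0 and 7.445 TPM in sublingual gland. In pancreas and liver it stayed at or below 0.1695 TPM. The 5 gland libraries with the lowest AQP5 had AQP2 at or below 0.2313 TPM, and the library with the highest AQP5 had the highest AQP2. Over the 15 gland libraries log2 AQP2 and log2 AQP5 had a Pearson correlation of 0.894, a description over libraries that share animals and section makeup. Whether the authors' quantification shared reads between these related genes cannot be seen from TPM. AQP6, on the other side of AQP5, did not exceed 0.4229 TPM in any gland library. AQP7 and AQP3, the other neighbouring pair, had a correlation of -0.504 over the same libraries.

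Genes of salivary fluid secretion other than aquaporins are the muscarinic receptor, calcium release, and the chloride and potassium channels and cotransporters that move the salt that water follows. Of 14 such genes, all tested, 4 were called higher in parotid than in pancreas, 3 in submandibular and 4 in sublingual gland, where 1.41%, 1.27% and 6.97% of all tested genes were, and none was called lower. KCNN4, a calcium-activated potassium channel, exceeded pancreas by 2.83 (parotid), 3.22 (submandibular) and 2.06 (sublingual gland) (SE 0.58, limma adjusted p = 0.00336, 0.00081 and 0.0288). ANO1, the acinar calcium-activated chloride channel, exceeded pancreas by 2.37 (parotid) and 2.19 (submandibular gland) (SE 0.61, limma adjusted p = 0.0248 and 0.0412). ANO1 was lower in pancreas than in liver by -3.16 (SE 0.61, adjusted p = 0.000438), and 2 further genes of the list, ITPR2 and ORAI1, were lower there as well, so that 3 of 14 were called lower, against 14.6% of all genes. Against liver, 3, 2 and 3 of the 14 were called higher in parotid, submandibular and sublingual gland (2.84%, 2.61% and 5.93% of all genes), and none lower. In parotid ANO1 was at 2.78 and 1.61 TPM in baboons 2 and 5, the animals with low parotid AQP5, and between 18.6 and 24.9 TPM in the other 3.

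Among 8 genes of glycerol and triglyceride handling, 5 were called lower in pancreas than in liver, where 14.6% of all genes were: PCK1, DGAT2, GPD1, GK and GPAM. PCK1, a key enzyme of gluconeogenesis and glyceroneogenesis, averaged 638.0 TPM in liver and 6.46 TPM in pancreas (log2 fold change -6.24, SE 0.64, limma adjusted p = 4.35e-08). DGAT2, which makes triglyceride, averaged 330.1 and 7.90 TPM (log2 fold change -4.98, SE 1.23, adjusted p = 0.00499). GK, the kinase that traps glycerol taken up through aquaglyceroporins, was at 17.5 TPM on average in liver and at 1.26 TPM in pancreas (log2 fold change -3.03, SE 0.39, limma adjusted p = 2.37e-06). GK was lower than in liver in every gland (-3.19, -3.27 and -2.36, SE 0.39, limma adjusted p at most 9.53e-05). In all, 4, 3 and 3 of the 8 genes were called lower than in liver in parotid, submandibular and sublingual gland, where 10.9%, 13.9% and 9.52% of all genes were. MGLL, which releases glycerol from monoacylglycerol, was higher in sublingual gland than in pancreas (by 3.40, SE 0.70, limma adjusted p = 0.00308). It was also higher there than in liver (by 2.03, limma adjusted p = 0.0494). In sublingual gland MGLL was at 261.8 and 241.6 TPM in baboons 1 and 4, the libraries rich in stratified mucosa markers. It was at 20.56 to 42.83 TPM in baboons 2, 3 and 5, and at 10.09 to 19.86 TPM in liver. No gene of this list was called in parotid or submandibular gland against pancreas. Of 5 genes of the complex that anchors AQP4 to the membrane cytoskeleton, DTNA alone was called higher in pancreas than in liver, parotid and submandibular gland. In these comparisons 2.86%, 2.4% and 2.81% of all tested genes were called higher in pancreas. SNTB1 alone was called lower in sublingual gland than in liver, where 9.52% of all genes were. DMD and DAG1 were not called in the 7 comparisons with pancreas or liver.

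The genes whose levels were most like each aquaporin over the 25 libraries are given with Pearson's r of log2(TPM + 1), as a description with no test. They were LPO (0.976), SOX10 (0.967) and SPDEF (0.96) for AQP5. LPO encodes the salivary enzyme lactoperoxidase, and SOX10 and SPDEF are transcription factors of secretory epithelium. In parotid, LPO was at 3.79 and 5.88 TPM in baboons 2 and 5 and between 100.2 and 147.5 TPM in the other 3. Over the 15 gland libraries alone the genes most like AQP5 were KIAA1324, LRRC26 and AZGP1 (0.966 each). The highest tissue mean of KIAA1324 and AZGP1 was in pancreas. For AQP3 the most alike genes over the 25 libraries were VSIG10L (0.978), TENT5B (0.922) and ZNF750 (0.887), a factor of epidermal differentiation, and the same 3 led over the 15 gland libraries. VSIG10L was at 49.5 TPM in the sublingual library of baboon 1, where AQP3 was highest, and at most at 16.8 TPM elsewhere.

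For AQP8 the most alike genes were IL22RA1 (0.978), SERPINI2 (0.977) and CEL (0.976), the last a secreted pancreatic lipase. For AQP7 they were GPD1 (0.962), ITGA7 (0.936) and PPP1R1A (0.921). GPD1, which makes glycerol 3-phosphate, also led over the 15 gland libraries alone (0.993), with PLIN4 (0.982), a lipid droplet protein, and ACACB (0.979) after it. GPD1 reached 1307 TPM (parotid, baboon 2), 795.8 TPM (submandibular gland, baboon 5) and 278.4 TPM (sublingual gland, baboon 2), the 3 gland libraries with the highest AQP7. For AQP11 the most alike genes were ABAT (0.965), DIO1 (0.955) and UGT2B39 (0.948), all highest in liver. Over the gland libraries alone those of AQP11 were HINT3 (0.913), DUSP3 (0.863) and PKIB (0.858). HINT3 and DUSP3 had their highest tissue mean in sublingual gland, and PKIB in pancreas. Those of AQP8 were SERPINI2 (0.942), CLPS (0.941) and CTRL (0.926) over the gland libraries. For AQP1 the most alike genes over the 25 libraries were IGFBP5 (0.907), TGFB3 (0.898) and MYH11 (0.88), a smooth muscle myosin, and over the gland libraries alone TMEM47 (0.907), MTARC2 (0.875) and CDK2AP1 (0.844). These libraries share animals and tissues, so a high value is easily reached between genes that mark the same tissue.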

How the data were processed

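RNA of flash-frozen tissue was sequenced as paired reads, per the labels' protocols. The deposited values are TPM per gene and are labelled as kallisto abundance. Kallisto, a tool that gives TPM, is among the tools that the submitters' processing notes name without versions. The index, annotation and genome build are not given in the sources used here, and the depth of the libraries is unknown. Library sums were 999999.5 to 1000000.6 TPM. All 21287 identifiers matched a RefSeq symbol of the Panubis1.0 gene table, which was used for names and gene order.

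Genes that reached 1 TPM as the mean of a tissue were fitted with limma 3.58.1 (R 4.3.3) on log2(TPM + 1). The model held tissue and animal (the replicate block) for all 25 libraries, with a trended prior. This scale understates changes of low genes. P-values were Benjamini-Hochberg adjusted over the 14991 genes in each of the 10 tissue pairs. A call needed adjusted p below 0.05 and a log2 fold change of 1 or more in size. Libraries with the same number come from the same animal, per the labels. Same-animal deviations from tissue means correlated by 0.161 on average, and those of different animals by -0.0354. The code was tested on simulated data. Python 3.11.15, pandas 2.3.3, numpy 2.4.6 and matplotlib 3.10.9 were used.

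The members and the gene lists were chosen with earlier results of these data known. Named were the 8 aquaporins, up to 3 called genes per pathway list with the largest fold changes, and the 3 genes most correlated with each tested aquaporin (tissue mean of 10 TPM or more, symbols made of LOC and digits left out). Some genes of these lists are counted but not reported here. Other genes, and the fold changes of aquaporins that did not pass, were chosen after their values were seen. The alternatives tried omitted the replicate block, fitted only the tissues compared, and used 2 scalings, 2 filters, a pseudocount of 0.1 or calls by adjusted p alone. Each animal, and sets of 4, 5 or 7 libraries, were also left out, the last 2 sets added after the data were seen.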

Additional observations from a re-analysis of the deposited data

Results flagged for a closer look

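Of 26 groups of 5 libraries with a mean of at least 1 TPM, 7 held a library that stood apart. Its gap to the nearest neighbour was more than 0.71 of the range of the group on the log2 scale. Chance gives about 1 in 20 in groups not chosen by their values. The AQP7 groups of parotid and sublingual gland reached a mean of 1 TPM only through the library that stood apart. The count of 7 can therefore not be set against 1 in 20. Baboon 2 gave 6 of the 7. Its parotid library stood apart for AQP1 (269.5 TPM, the others 36.17 to 64.17 TPM) and AQP7 (66.7 TPM, the others 0.2387 to 1.335 TPM). Its submandibular library stood apart for AQP3 (5.107 TPM, the others 28.0 to 45.56 TPM), AQP5 (5.397 TPM, the others 54.71 to 88.27 TPM) and AQP8 (10.79 TPM, the others 1.769 to 2.804 TPM). Its sublingual library stood apart for AQP7 (13.18 TPM, the others 0.4242 to 1.161 TPM). The last of the 7 was AQP11 in the liver of baboon 5 (1.608 TPM, the others 8.126 to 12.64 TPM). In that liver DIO1 was at 8.74 TPM, against 54.1 to 104.8 TPM in the others, and PCK1 at 119.7 TPM, against 470.4 to 987.7 TPM.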

How the results depend on the processing

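Of 28 called differences, 13 kept their call and direction under all 16 alternatives, 15 lost the call under at least 1, and none changed sign. Those that kept it were the 6 of AQP1, the 4 of AQP8 that involve pancreas and the 3 of AQP11 between gland and liver. The count of aquaporins called was 11 of 18 in gland against pancreas (from 6 without baboon 1, 3 or 4 to 14 without baboon 2), 14 of 18 in gland against liver (from 9 without baboon 1 to 17 without baboon 2), 3 of 6 in pancreas against liver (2 to 3 without 1 animal) and 0 of 18 between glands (0 without any 1 animal). Without the replicate block these counts were 8, 12, 3 and 0, and the block changed no calls other than the 5 given with their results. Leaving out 7 libraries gave 1 call between glands, AQP3 higher in parotid than in sublingual gland (log2 fold change 1.61, limma adjusted p = 0.0494). In that pair 30.6% of all tested genes were then called. These 7 are the set of 4, the submandibular library of baboon 2 (together the set of 5) and the mucosa-rich sublingual libraries of baboons 1 and 4. The added ones were chosen by secretory and mucosal markers, and AQP5 moves with the former. Only baboons 3 and 5 remain in sublingual gland, whose highest AQP3 library (405.8 TPM, baboon 1) is left out. The parotid libraries left out, of baboons 2 and 5, have the lowest parotid AQP3 (3.731 and 2.276 TPM). The call thus leans on the choice of libraries and is a description only. Over the alternatives, the share of all tested genes called went from 2.47% to 17.2% in gland against pancreas (5.79% in the main model), from 9.8% to 35.6% in gland against liver (15.2%), from 11.5% to 28.7% in pancreas against liver (17.5%) and from 0% to 29.6% between glands (0.06%). Under TMM and median-of-ratios scaling the sublingual AQP3 call against pancreas was lost (log2 fold change 2.46 and 2.5, limma adjusted p = 0.125 and 0.12), as were the submandibular AQP3 and AQP5 calls against pancreas (adjusted p from 0.0543 to 0.0734), the sublingual AQP5 call against liver (0.0917 and 0.0854) and, by its fold, the AQP11 call in pancreas against liver. With TMM, 36.8% and not 73.6% of called genes were the higher ones in sublingual gland against pancreas, 41.1% and not 16.3% in pancreas against liver, 36.5% and not 20.6% in parotid against liver, and 39.4% and not 15.8% in submandibular gland against liver. TPM keeps no depth, so counting error at low levels is unknown.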
